A study of Mus musculus with 3 samples.

Results

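The genes described here encode core and auxiliary factors of pre-mRNA splicing: the SR proteins, the hnRNP proteins and protein components of the small nuclear ribonucleoprotein particles (snRNPs). They were taken by symbol, as every gene with a probe set annotated to a single symbol that begins with Srsf, Hnrnp, Sf3a, Sf3b, Prpf, U2af or Snrp. Where a gene had several such probe sets, the brightest by its mean signal stood for it. The rule gave 62 of 18193 genes: 10 Srsf, 19 Hnrnp, 3 Sf3a, 6 Sf3b, 12 Prpf, 3 U2af and 9 Snrp genes. Together they had 174 probe sets, and 43 genes had 2 or more. Hnrnpa3, Snrpa, Snrpd1 and Snrpd2 lie on probe sets that also carry other symbols and are not analysed here, nor is Srsf7.

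Messenger RNA was measured on Affymetrix 3' arrays in 3 populations of C57BL/6 mouse cells, each on 1 array. The ES cells were the B6N-22 line, which was grown on mouse embryonic fibroblasts treated with mitomycin C, in medium with serum and leukemia inhibitory factor. The lymphocytes were B220 B cells and CD4 T cells from the spleens of mice aged 6 to 8 weeks, taken with magnetic beads at a purity stated as over 98%. The labels leave unstated how many animals were used, whether they were pooled and whether feeder cells were removed. With 1 array per population no difference below has a replicate check, no test was possible, and the number of arrays limits the precision.

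The arrays carried the markers of their labels. ES cells had all 9 ES cell markers above the detection level, B cells all 7 B cell markers and T cells all 7 T cell markers. The ES cell array also held all 11 fibroblast markers, with a summed signal of 66331 against 722 in B cells and 7644 in T cells. Thy1, which T cells also express, gave 7185 of the T cell sum. Macrophage markers summed to 4012, 22766 and 53869 in ES, B and T cells. Genes of replication and mitosis summed to 135583, 37489 and 34966, and 18 of 19 lay below ES cells by at least 2-fold in T cells and 16 in B cells. Of all genes, 24.7% in T cells and 24.6% in B cells did so. The part of fibroblasts, macrophages and proliferation in the differences below was not tested. Because RNA came from bulk samples, fewer cells of a type and less RNA per cell cannot be told apart.

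Splicing removes introns in a stepwise assembly on the pre-mRNA. The U1 snRNP pairs with the start of the intron, U2AF and then the U2 snRNP with its SF3a and SF3b complexes mark the branch point and the intron's end, and the tri-snRNP of U4, U6 and U5 completes the spliceosome. SR proteins bind exonic enhancers and recruit these particles, whereas hnRNP proteins coat the transcript and often repress nearby splice sites. Lymphocytes are known for regulated splicing of the receptor phosphatase gene Ptprc, in which Hnrnpll takes part.

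Splicing factor genes were measured in every population. Of the 62 genes, 60 were above the detection level of 95, the median of all array values, in all 3 arrays, against 47.3% of all genes. Their signals, in the arbitrary linear units of the deposited table, ran from 3.4 to 26266.4. Srsf12, an SR protein gene, had signals of 28.3 in ES, 3.4 in B and 71.6 in T cells, below detection throughout. Snrpn, an imprinted gene for a tissue-restricted form of the Sm core protein, had signals of 204 in ES, 11.9 in B and 4.9 in T cells. ES cells were therefore at least 2.15-fold above either lymphocyte. Its value comes from the 1 probe set that carries no other symbol.

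**Figure D1:**
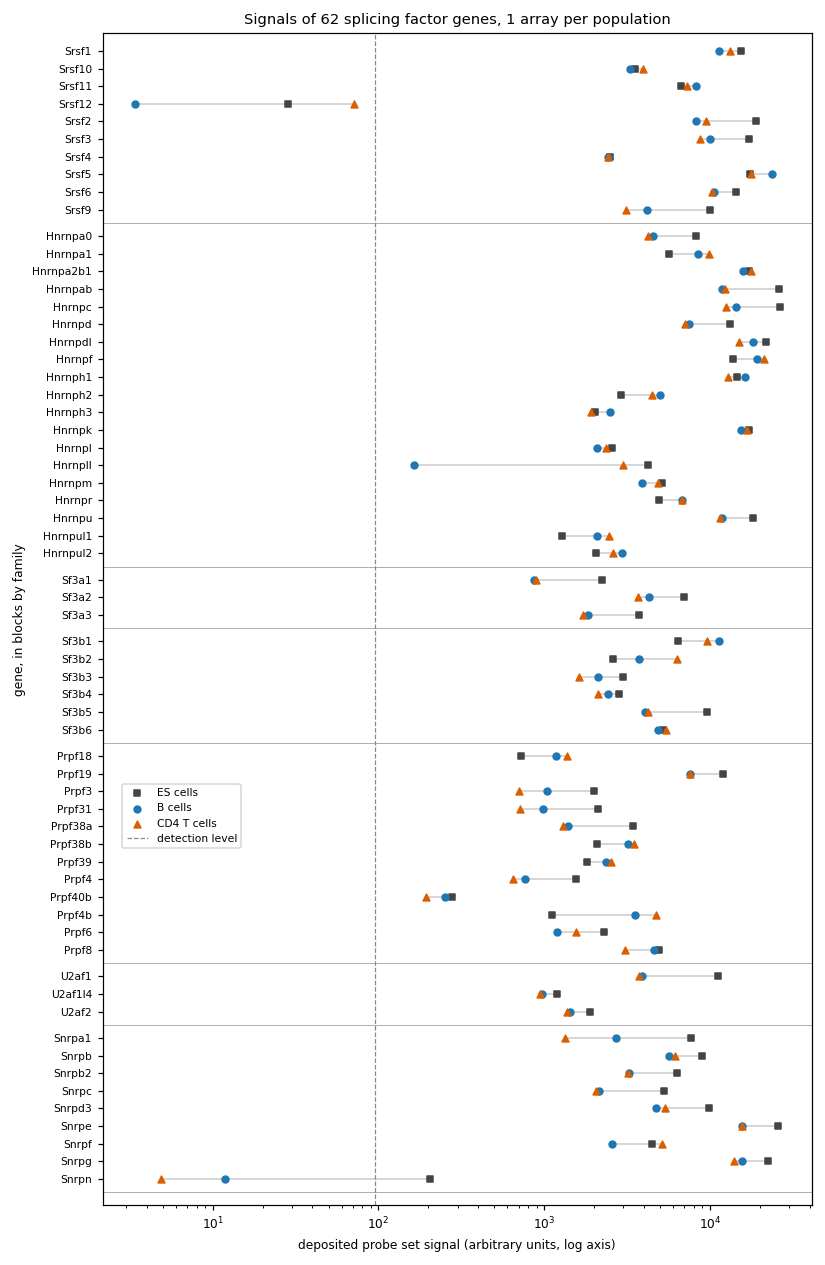
Deposited signal (arbitrary units, log axis) of each of the 62 genes in ES cells (squares), B cells (circles) and CD4 T cells (triangles), in blocks by family, with 1 array per population. The dashed line is the detection level of 95, and Hnrnpll in B cells, at 163, stands far left of its ES and T cell values.

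In T cells compared with ES cells, 2 of 61 measured splicing factor genes were at least 2-fold higher and 15 at least 2-fold lower. Over all genes measured, 22.7% were higher and 24.7% lower by that rule. The share of lower splicing genes, 24.6%, is thus near the background under the deposited scaling and is no result about them, while the share of higher genes was 3.28%. The 2 higher genes were Prpf4b and Sf3b2. A gene counted as measured where at least 1 of the 2 arrays exceeded the detection level, and lower values were raised to that level first. At 4-fold, 1 gene was higher (Prpf4b) and 1 lower (Snrpa1), where 10.8% and 10.2% of all genes were. The remaining 44 genes, 72.1%, lay within 2-fold, compared with 52.6% of all genes. The median log2 difference was -0.52, against -0.11 for all genes.

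In B cells compared with ES cells, 1 of 61 measured genes, Prpf4b, was at least 2-fold higher and 15 were at least 2-fold lower. Over all genes, 21.1% were higher and 24.6% lower, and 24.6% of the splicing genes were lower, which is again the background share. None was 4-fold higher and Hnrnpll alone was 4-fold lower, where 9.85% and 10.3% of all genes were. The median was -0.45, against -0.07 for all genes, and 73.8% of the splicing genes lay within 2-fold, against 54.3%. The T cell and B cell comparisons share the ES cell array, so their values are set side by side and not counted as separate support.

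T and B cells differed little from each other in these genes. Of 60 measured genes, 57 lay within 2-fold, 95% against 84.8% of all genes. T cells were at least 2-fold higher for Hnrnpll and Snrpf, and Snrpa1 was at least 2-fold lower, where 8.89% and 6.32% of all genes were. Only Hnrnpll passed 4-fold, in the higher direction, a rule met by 2.49% of all genes, and none was 4-fold lower, against 1.85%. Among genes above detection in all 3 arrays, 73.3%, 75% and 95% of splicing genes lay within 2-fold in the T against ES, B against ES and T against B comparisons. The corresponding shares of all such genes were 56.7%, 57.2% and 89.0%.

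The scaling of the arrays bears on these counts and on their background. With quantile normalization 4 genes were higher and 11 lower in T than in ES cells, 6.56% and 18.0% against 19.4% and 28.2% of all genes. The same setting gave 2 higher and 10 lower in B than in ES cells, 3.28% and 16.4% against 18.3% and 27.2%. With scaling to the 75th percentile 27 genes were lower in T cells and 27 in B cells, 44.3% each, against 32.7% and 31.3% of all genes. Centring on all genes gave 4 higher and 11 lower for T against ES cells, where 24.4% and 22.4% of all genes were. The share of lower splicing genes against ES cells thus lay below or above that of all genes depending on the scaling. For T against B cells, centring gave 2 higher and 0 lower, where 9.64% and 5.87% of all genes were. Scaling to the 75th percentile gave 1 of each, where 8.48% and 6.49% of all genes were. The splicing median minus the all-gene median was -0.41 in T and -0.37 in B cells under the deposited scaling, both against ES cells. It was -0.49 and -0.43 with scaling to the 75th percentile, and -0.09 and -0.15 with quantile normalization. The lower median of the splicing genes was thus small under 1 of these scalings.

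By family, the medians for T cells minus ES cells were lowest for Sf3a, at -1.13, and Snrp, at -0.88, followed by Prpf at -0.61 and U2af at -0.47. The medians of Srsf, Sf3b and Hnrnp were -0.21, -0.18 and -0.07. For B cells minus ES cells they were -1.02 for Sf3a, -0.95 for Snrp, -0.44 for Srsf, -0.40 for Prpf, -0.39 for U2af, -0.16 for Hnrnp and -0.15 for Sf3b. Across the scalings tried, the Sf3a, Snrp, Prpf and U2af medians stayed below 0 against ES cells. The Hnrnp median changed sign in both comparisons, from -0.45 to 0.17 in T cells and from -0.51 to 0.04 in B cells. The Srsf median did so in T cells (-0.59 to 0.06) and the Sf3b median in B cells (-0.50 to 0.03). Between T and B cells every family median lay between -0.11 and -0.01. The families hold 3 to 19 genes, and no test of a difference between them was possible.

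**Figure D2:**
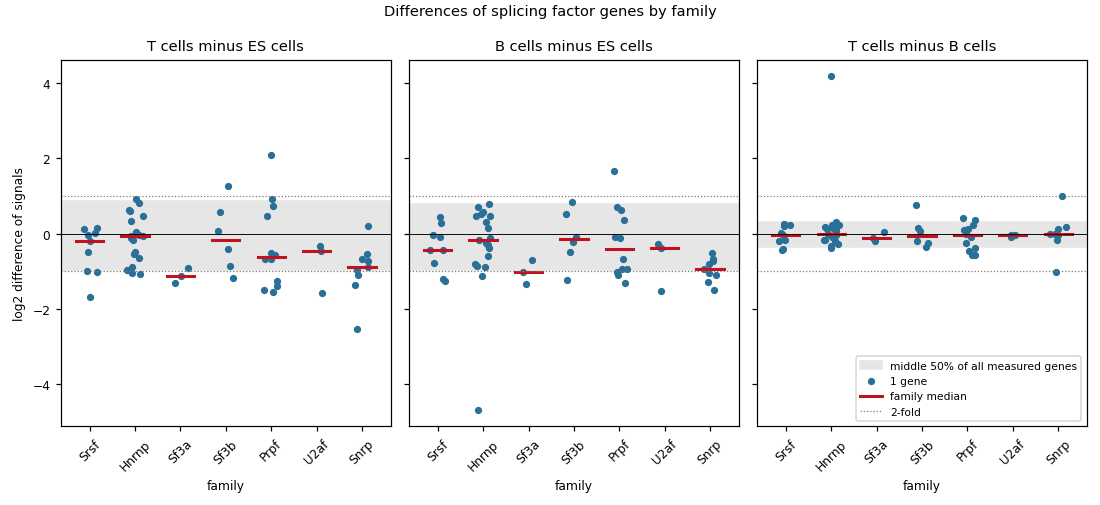
Log2 difference of each measured gene (points) by family, for T cells minus ES cells, B cells minus ES cells and T cells minus B cells. Red bars are family medians, dotted lines mark 2-fold and the grey band is the middle 50% of all measured genes; the Sf3a and Snrp medians are the lowest against ES cells, at -1.13 and -0.88 in T cells, the Hnrnp, Srsf and Sf3b medians lie closer to 0 and change sign with the scaling in at least 1 panel, and Hnrnpll stands apart in the panels that include B cells.

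The promoters of 6 members, chosen after their values were seen, are shown to let their sequence be read beside the values. For each gene the 250 bases upstream of the start site were taken from RefSeq, build GRCm38.p6, all on the + strand. The 3 SF3a genes are shown because all 3 differences from ES cells lay below 0 in both lymphocytes. The same held for the 3 U2af genes, which are not shown. Snrpa1 and Srsf9 are shown because they were the lowest of their families in T cells, and Prpf4b because it was the highest of all. Sf3a1 lies at chr11:4160104-4160353, Sf3a2 at chr10:80798485-80798734 and Sf3a3 at chr4:124714611-124714860. Snrpa1 lies at chr7:66060086-66060335, Srsf9 at chr5:115326927-115327176 and Prpf4b at chr13:34875279-34875528. Capitals mark the ETS core CCGGAA and the GC box GGGCGG, each on either strand.
Sf3a1: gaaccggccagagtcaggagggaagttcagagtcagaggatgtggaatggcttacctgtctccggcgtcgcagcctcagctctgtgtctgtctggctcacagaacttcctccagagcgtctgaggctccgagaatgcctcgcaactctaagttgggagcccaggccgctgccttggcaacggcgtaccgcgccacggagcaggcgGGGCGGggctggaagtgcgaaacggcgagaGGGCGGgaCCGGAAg
Sf3a2: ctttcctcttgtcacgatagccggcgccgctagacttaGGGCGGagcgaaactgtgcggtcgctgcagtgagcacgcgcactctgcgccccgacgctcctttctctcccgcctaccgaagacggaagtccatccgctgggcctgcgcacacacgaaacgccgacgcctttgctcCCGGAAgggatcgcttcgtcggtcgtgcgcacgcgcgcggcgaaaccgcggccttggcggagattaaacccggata
Sf3a3: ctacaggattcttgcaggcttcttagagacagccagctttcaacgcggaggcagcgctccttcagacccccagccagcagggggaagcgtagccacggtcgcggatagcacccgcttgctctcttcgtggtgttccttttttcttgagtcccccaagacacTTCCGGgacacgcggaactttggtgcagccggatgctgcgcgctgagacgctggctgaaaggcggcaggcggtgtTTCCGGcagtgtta
Snrpa1: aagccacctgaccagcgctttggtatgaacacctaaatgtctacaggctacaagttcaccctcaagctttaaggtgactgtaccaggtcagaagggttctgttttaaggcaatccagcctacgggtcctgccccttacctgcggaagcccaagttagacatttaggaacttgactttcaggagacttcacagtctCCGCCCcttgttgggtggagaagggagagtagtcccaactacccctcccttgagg
Srsf9: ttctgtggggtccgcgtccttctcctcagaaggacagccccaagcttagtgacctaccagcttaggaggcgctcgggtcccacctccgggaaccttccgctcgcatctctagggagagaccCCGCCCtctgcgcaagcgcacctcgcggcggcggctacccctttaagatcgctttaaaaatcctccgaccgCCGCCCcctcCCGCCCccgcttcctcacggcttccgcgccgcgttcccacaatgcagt
Prpf4b: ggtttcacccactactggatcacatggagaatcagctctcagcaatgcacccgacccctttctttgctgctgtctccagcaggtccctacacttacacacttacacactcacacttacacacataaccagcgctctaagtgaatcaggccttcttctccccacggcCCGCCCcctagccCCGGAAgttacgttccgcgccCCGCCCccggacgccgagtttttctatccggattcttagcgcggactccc

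All 3 SF3a promoters held the ETS core, the Sf3a3 promoter on the opposite strand only. Prpf4b, which differed in the other direction, held it too, while Snrpa1 and Srsf9 had GC boxes and no ETS core in these windows. Of the 62 genes, 55 had a promoter in the RefSeq table, and Hnrnpll did not. Among these, 26 (47.3%) held CCGGAA, against 17.5% of 14452 promoters of the same length. Where several start sites were listed for a gene, the most upstream was used. By family the ETS core was found in 5 of 8 Snrp, 3 of 4 Sf3b, 5 of 10 Srsf, 5 of 11 Prpf, 5 of 17 Hnrnp and 0 of 2 U2af promoters.

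Further motifs were searched on both strands, and matches were allowed to overlap. GGGCGG was held by 63.6% of the splicing gene promoters and 49.9% of all, CCAAT by 49.1% and 35.8%, and the E2F-type TTCCCGC by 14.5% and 5.74%. TCTCGCGA, part of a ZBTB33 motif, was in 5.45% and 1.5%. The TATA box TATAAA was in 7.27% and 9.02%, the E-box CACGTG in 5.45% and 7.58%, and GCATGCGC, part of an NRF1 motif, in 1.82% and 3.55%. The splicing gene promoters held a median of 19 CpG sites and 59.6% G and C, against 13 and 57.6% for all. The part of base composition in these shares was not tested. The comparison held all genes with a promoter and not only detected genes, and the part of detection was not tested either. A match describes letters and not a bound factor.

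Among the SR protein genes, Srsf9 and Srsf2 were at least 2-fold lower in both lymphocytes than in ES cells. Srsf9, an SR protein with a short arginine and serine domain, had signals of 9992 in ES, 4156.5 in B and 3108 in T cells. The ES cell array was highest, and T cells were 3.22-fold lower than ES cells (log2 -1.68) and B cells 2.4-fold lower (-1.27), from its only probe set. Srsf2, an SR protein that binds exonic enhancers and marks nuclear speckles, had signals of 19001 in ES, 8265 in B and 9404 in T cells, with log2 differences of -1.01 in T and -1.20 in B cells. In T cells all 4 Srsf2 probe sets lay at least 2-fold below ES cells, from -1.63 to -1.01, so its direction did not hang on the probe set chosen.

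Srsf3, the smallest of the classical SR proteins, gave 17235 in ES, 9978 in B and 8682.5 in T cells and fell just inside 2-fold, at -0.99 in T cells. Of its 6 probe sets 5 were lower in T cells, from -2.45 to -0.99, and 1 was higher at 2.06. That probe set had signals of 499, 1727 and 2074 in ES, B and T cells. The Srsf3 probe sets therefore disagreed in direction by more than 2-fold on each side. Srsf1, which promotes use of nearby splice sites, had 15280.2 in ES, 11263 in B and 13179.6 in T cells. All 6 measured Srsf1 probe sets were lower in T cells, from -1.31 to -0.20, although the value of the chosen one, -0.21, changed sign across the scalings (-0.59 to 0.17).

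The other SR protein genes differed less. Srsf5 was highest in B cells, with 17487 in ES, 23804 in B and 17594 in T cells, a log2 difference of 0.44 from ES cells. Srsf4 had nearly equal signals of 2483 in ES, 2411 in B and 2439.7 in T cells, with differences of -0.03 in T and -0.04 in B cells. Srsf6, Srsf10 and Srsf11 had differences of -0.49, 0.15 and 0.12 in T cells and -0.45, -0.10 and 0.28 in B cells, against ES cells. The other 3 Srsf6 probe sets were higher in both lymphocytes, up to 0.73 in T cells, and the other 3 Srsf10 probe sets were lower, down to -1.38 in T cells. The values of the chosen Srsf10 and Srsf11 probe sets changed sign with the scaling in both comparisons. Under the deposited scaling all 4 Srsf11 probe sets were higher in lymphocytes, from 0.12 to 1.57 in T and from 0.28 to 1.87 in B cells. The chosen one gave the smallest value in each, and 2 of the 4 reached 2-fold. By the probe set used, the other 7 measured Srsf genes lay within 2-fold in both comparisons with ES cells.

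Among the hnRNP genes Hnrnpll had the greatest contrast of all 62 genes. Hnrnpll encodes the hnRNP L-like protein, which represses variable exons of Ptprc in activated lymphocytes. Its signals were 4211.5 in ES, 163 in B and 2979.9 in T cells, so B cells were 25.8-fold below ES cells (-4.69) and 18.2-fold below T cells. A second probe set gave 2237, 69.3 and 1629.5 in the same order, with B cells below detection, at least 23.5-fold below ES cells and at least 17.2-fold below T cells. T cells lay -0.50 from ES cells, within 2-fold. Both probe sets thus placed B cells alone at the low end. The B cell array held T cell markers at a summed signal of 1013 against 64000 in T cells, and their part in its B cell value was not tested.

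Its paralog Hnrnpl, which also binds Ptprc exons, showed no such gap, with 2559 in ES, 2073 in B and 2355 in T cells. The difference between T and B cells was 0.18 for Hnrnpl and 4.19 for Hnrnpll.

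Hnrnpab and Hnrnpc were the hnRNP genes at least 2-fold lower in T cells. Hnrnpab, an hnRNP of the A/B type, had 25908 in ES, 11848 in B and 12386 in T cells, with -1.06 in T and -1.13 in B cells. Its 7 probe sets ran from -2.04 to 0.09 in T cells, with 6 of them lower. Hnrnpc, which binds uridine tracts, had 26266 in ES, 14269 in B and 12533 in T cells, with -1.07 and -0.88. In B cells only Hnrnpab and Hnrnpll passed 2-fold.

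Hnrnpa0, Hnrnpd and Hnrnpu lay just inside 2-fold or nearer, all lower in lymphocytes. Hnrnpa0 had 8175 in ES, 4516 in B and 4205 in T cells. Hnrnpd, which binds AU-rich elements and speeds decay, had 13152.5 in ES, 7470.2 in B and 7044.5 in T cells. Hnrnpu, a nuclear scaffold protein, had 18134 in ES, 11885 in B and 11469 in T cells, but its 5 probe sets ran from -0.89 to 0.96 in T cells. The first 2 genes gave -0.96 and -0.90 in T cells, and -0.86 and -0.82 in B cells.

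Other hnRNP genes were higher in lymphocytes by the probe set used, all within 2-fold. Hnrnpul1 had 1284 in ES, 2086 in B and 2442 in T cells, 0.93 in T and 0.70 in B cells. Hnrnpa1, a widely expressed binder of splicing silencers, had 5628 in ES, 8406 in B and 9865 in T cells. Its 3 probe sets gave -0.74, 0.81 and 1.27 in T cells, so they disagreed in sign. Hnrnph2 and Hnrnpf, which bind runs of guanines, differed by 0.61 and 0.62 in T cells and 0.78 and 0.48 in B cells. Of the 4 Hnrnpf probe sets 2 were lower in both comparisons, down to -0.32 in T and -0.42 in B cells. Hnrnpr gave 0.46 and 0.47, and Hnrnpul2, whose sign in T cells changed with the scaling, 0.33 and 0.51.

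A group of hnRNP genes had nearly level signals. Hnrnpa2b1 had 17084 in ES, 15832 in B and 17657.5 in T cells, and Hnrnpk, which binds cytosine tracts, had 17106 in ES, 15304 in B and 16740.4 in T cells. Hnrnpm had 5102.5 in ES, 3899 in B and 4877 in T cells. The differences of these genes from ES cells lay between -0.39 and 0.05. Of these 3 genes, Hnrnpa2b1 and Hnrnpk changed sign with the scaling in both comparisons and Hnrnpm in T cells only. These values are of the probe set used. All 4 Hnrnpa2b1 probe sets were above 0 in T cells, from 0.05 to 0.71, and they ran from -0.11 to 0.61 in B cells. Hnrnpdl, Hnrnph1 and Hnrnph3 gave -0.54, -0.17 and -0.07 in T cells and -0.26, 0.16 and 0.31 in B cells. Signs changed with the scaling for Hnrnph1 and Hnrnph3, and the 7 Hnrnpdl probe sets ran from -0.75 to 1.34 in T cells. In all, 17 of 19 Hnrnp genes lay within 2-fold in each comparison with ES cells.

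Among the snRNP proteins Snrpa1 was the lowest in T cells. Snrpa1 encodes the A' protein of the U2 snRNP. Its signals were 7644 in ES, 2706 in B and 1326 in T cells, which put T cells 5.76-fold (-2.53) and B cells 2.82-fold (-1.50) below ES cells. The 2 other probe sets gave -1.26 and -1.63 in T cells and -1.26 and -1.66 in B cells. All 3 thus showed ES cells above both lymphocytes by at least 2-fold. The difference of -1.03 between T and B cells came from the chosen probe set, while the other two gave 0.00 and 0.04.

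Snrpc, the U1 snRNP protein that steadies pairing with the start of the intron, had 5289 in ES, 2142 in B and 2066 in T cells, with -1.36 in T and -1.30 in B cells. Snrpb2, the partner of Snrpa1 in the U2 snRNP, had 6281 in ES, 3254 in B and 3199 in T cells, just inside 2-fold at -0.97 and -0.95. Both particles thus had a protein gene with its highest signal in ES cells.

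The Sm core proteins form the ring around the snRNA. Snrpb, Snrpd3, Snrpe and Snrpg differed by -0.55, -0.88, -0.73 and -0.69 in T cells. In B cells they differed by -0.67, -1.06, -0.73 and -0.52, with Snrpd3 past 2-fold. ES cells had the highest signal in each, for example 25712 in ES, 15517.5 in B and 15538 in T cells for Snrpe. Snrpf, a further ring member, stood apart with 4437 in ES, 2549.7 in B and 5128 in T cells. It was lowest in B cells, T cells were 2.01-fold above B cells (1.01), and its sign against ES cells in T cells changed with the scaling. With scaling to the 75th percentile Snrpf no longer reached 2-fold between T and B cells. Its value rests on 1 probe set.

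U2af1, the small U2AF subunit that reads the AG at the intron's end, had the largest difference from ES cells of the 3 U2af genes. Its signals were 11159.9 in ES, 3869 in B and 3733 in T cells, 2.99-fold lower in T cells (-1.58) and 2.88-fold lower in B cells (-1.53). U2af2, the large subunit that binds the polypyrimidine tract, had 1886 in ES, 1439.7 in B and 1364.5 in T cells, with -0.47 and -0.39. U2af1l4, which encodes an alternative small subunit, had 1191 in ES, 971 in B and 946 in T cells, with -0.33 and -0.29. Each had 1 probe set, so no second reading was available. T and B cells differed by -0.08 to -0.04 in the 3 genes.

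SF3a is a complex of the 3 proteins encoded by Sf3a1, Sf3a2 and Sf3a3, and it helps tie the U2 snRNP to the branch point. Sf3a1 had 2223 in ES, 869 in B and 894 in T cells, -1.31 in T and -1.35 in B cells. Sf3a3 had 3749.5 in ES, 1847 in B and 1712 in T cells, -1.13 and -1.02. Both were at least 2-fold lower in each lymphocyte. The ETS core was in all 3 SF3a promoters shown, and also in that of Prpf4b, which was higher in lymphocytes. Sf3a2 had 7008 in ES, 4272 in B and 3699 in T cells and lay within 2-fold at -0.92 and -0.71. The probe sets bore out the 2-fold call for Sf3a3, where both were at least 2-fold lower in T and in B cells. Of 3 measured Sf3a1 probe sets, the others lay nearer 0, up to -0.07 in T cells and 0.21 in B cells. With the median over all probe sets the Sf3a median in B cells was -0.36 in place of -1.02.

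SF3b completes the U2 snRNP, and its genes did not share a direction. Sf3b5, a small subunit, had 9631 in ES, 4068 in B and 4247 in T cells, -1.18 in T and -1.24 in B cells, and its 2 measured probe sets gave -1.18 and -1.16 in T cells. Sf3b1, the subunit that clamps the branch point, had its lowest signal in ES cells, with 6415 in ES, 11376 in B and 9602 in T cells. All 4 Sf3b1 probe sets were higher in lymphocytes than in ES cells, from 0.58 to 1.73 in T cells and from 0.65 to 1.22 in B cells. The chosen Sf3b1 probe set gave the smallest of these in T cells, and 2 of the 4 reached 2-fold there.

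Sf3b2 counted as 2-fold higher in T cells from signals of 2605 in ES, 3748 in B and 6307 in T cells (1.28). Its 7 probe sets ran from -0.36 to 1.28, 3 of them below 0 and 4 above. The median of the 7 differences was 0.25, whereas the difference between the median log2 values of the arrays was -0.36, so the sign depended on how probe sets were combined. Sf3b3 and Sf3b4, which lie around Sf3b1 in the complex, differed by -0.87 and -0.42 in T cells and -0.50 and -0.22 in B cells. Sf3b6, which contacts the branch point adenosine, was near level with 5176 in ES, 4882 in B and 5393 in T cells, a difference whose sign changed with the scaling in both comparisons with ES cells.

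Prpf genes encode proteins of the tri-snRNP, the Prp19 complex and other steps. Prpf4b, a kinase that phosphorylates tri-snRNP proteins, had 1114 in ES, 3543 in B and 4699.5 in T cells. It was 4.22-fold higher in T cells (2.08) and 3.18-fold higher in B cells (1.67) than in ES cells, the highest difference of all 62 genes in both comparisons. Of its 6 probe sets 5 were higher in T cells, from 0.33 to 2.08, and 1 lay at -0.12. The direction was therefore shared by most probe sets, but 3 of the 6 reached 2-fold.

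Structural proteins of the tri-snRNP went the other way. Prpf31, which joins the U4 particle to the tri-snRNP, had 2100.3 in ES, 981 in B and 713 in T cells, with -1.56 in T and -1.10 in B cells. Prpf3, of the U4 and U6 particle, had 1997 in ES, 1033 in B and 699.8 in T cells, with -1.51 and -0.95. Prpf4, its binding partner, had 1547 in ES, 764 in B and 645 in T cells, with -1.26 and -1.02. All of these had their highest signal in ES cells and their lowest in T cells. The second probe set was at -0.40 for Prpf31 and 0.51 for Prpf4 in T cells, so the size, and for Prpf4 the sign, depended on the probe set. Prpf6, another bridging protein, had 2289 in ES, 1201 in B and 1549 in T cells, -0.56 and -0.93.

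Prpf8, the scaffold of the catalytic center, had 4897 in ES, 4593 in B and 3082 in T cells. It lay within 2-fold in T cells (-0.67), and its sign in B cells (-0.09) changed with the scaling. Prpf19, the ubiquitin ligase of the Prp19 complex, had 11951.5 in ES, 7528 in B and 7532 in T cells, -0.67 in T cells. Its other 3 measured probe sets were at least 2-fold lower there, down to -1.52. For Prpf19 the chosen probe set thus gave the smallest difference.

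Prpf38a, a protein of the precatalytic spliceosome, had 3439.8 in ES, 1391 in B and 1301.5 in T cells, with -1.40 in T and -1.31 in B cells. Its 2 other probe sets were dim and gave 0.85 and 1.10 in T cells, the opposite direction. Prpf18, a factor of the late catalytic step, was higher in lymphocytes within 2-fold, with 722 in ES, 1175 in B and 1372 in T cells. Prpf38b and Prpf39 were also higher, by 0.74 and 0.47 in T cells and 0.62 and 0.37 in B cells, and all 4 Prpf38b probe sets and all 3 Prpf39 probe sets were above 0 in T cells. Prpf40b, a U1-associated protein, had low signals of 277 in ES, 252 in B and 193 in T cells.

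Disagreement between probe sets of a gene was the only error that could be measured, and it covers probe effects and not cultures or animals. From the 2 brightest probe sets of 41 splicing genes, the SD of a single probe set's log2 difference was 0.669 for T against ES cells, against 0.633 over all genes. It was 0.488 over 40 genes for B against ES cells (all genes 0.610) and 0.325 over 40 genes for T against B cells (all genes 0.350). Of 41 splicing genes with at least 2 measured probe sets, 19 (46.3%) had probe sets of both signs in T against ES cells, compared with 26.9% of all such genes. For B against ES cells the shares were 51.2% and 26.6%, and for T against B cells 73.2% and 41.5%. Both signs become likelier with more probe sets and with differences near 0, and genes were matched for neither. The median log2 range over a gene's probe sets was 1.2 for splicing genes and 0.88 for all such genes in T against ES cells. It was 0.97 and 0.85 for B against ES cells, and 0.44 and 0.46 for T against B cells. Besides the genes so described above, the probe sets in T cells differed in sign for Hnrnph1 (-0.17 to 1.43), Hnrnpr (-0.26 to 1.38), Prpf6 (-0.56 to 0.75), Sf3b3 (-0.87 and 0.33), Snrpd3 (-0.88 to 0.37), Hnrnpk and Sf3b6. In B cells but not in T cells they did so for Hnrnpa2b1, Sf3a1, Sf3b4, Prpf31 and Snrpb2. Srsf3 and Prpf38a had a probe set at least 2-fold on each side of 0 in both comparisons with ES cells, 4.88% against 1.67% of all genes in T cells. Between T and B cells Prpf38a alone did, 2.44% against 0.112% of all genes.

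A further rule, chosen after the data were seen, required every measured probe set of a gene to reach 2-fold in the same direction. By it, 9 of 61 measured splicing genes were lower in T than in ES cells. They were Prpf3, Sf3a3, Sf3b5, Snrpa1, Snrpc, Snrpn, Srsf2, Srsf9 and U2af1, and 0 were higher. Over all genes 18.0% were lower and 16.8% higher by this rule. In B cells 7 of 61 were lower than in ES cells and 0 higher, against 17.5% and 15.7%. The 7 were Hnrnpll, Sf3a3, Snrpa1, Snrpc, Snrpn, Srsf9 and U2af1. Hnrnpll and Snrpf were higher in T than in B cells and 0 were lower, against 6.49% and 5.07%. Prpf4b and Sf3b2 did not pass this rule. Against ES cells the share of lower splicing genes did not exceed that of all genes in either lymphocyte. Prpf3, Snrpc, Snrpn, Srsf9 and U2af1 had 1 measured probe set against ES cells, and Snrpf had 1 between T and B cells. For these genes the rule compared no probe sets with each other.

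**Figure D3:**
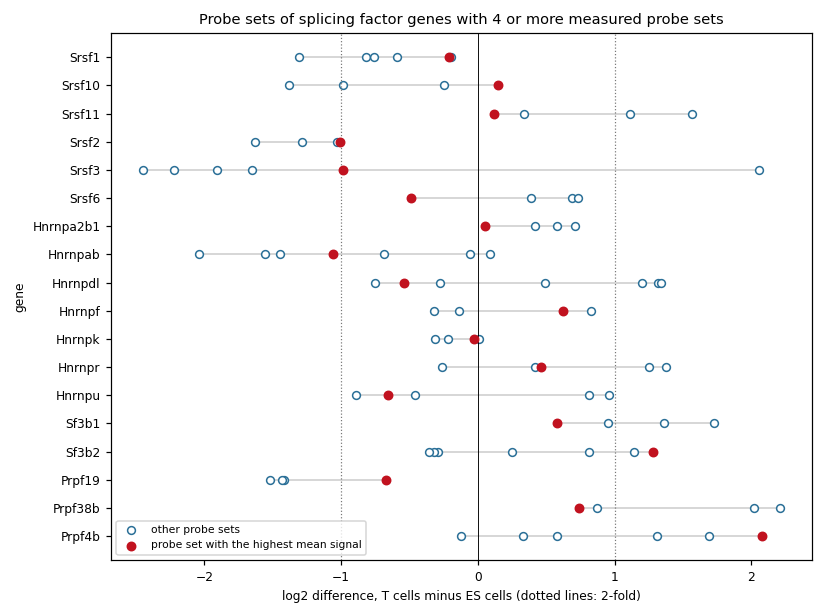
Log2 difference of T cells minus ES cells for each measured probe set of the 18 genes with at least 4 measured probe sets. Filled red points are the probe sets used for the gene, open points are the others and dotted lines mark 2-fold; the Srsf2 points all lie at or below -1.01, while those of Srsf3 run from -2.45 to 2.06.

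The other genes of the pathway were taken as whole lists. The genes of snRNP assembly, which load the Sm ring onto snRNA, had the lowest median of the splicing lists. In T cells 8 of 11 measured genes lay at least 2-fold below ES cells, and in B cells 6, with medians of -1.44 and -1.14, where 24.7% and 24.6% of all genes were lower by that rule. Wdr77, which with Prmt5 methylates Sm proteins before assembly, had 9759 in ES, 2029 in B and 1702 in T cells, with -2.52 and -2.27. Prmt5, the methyltransferase, had 4493 in ES, 978 in B and 1015.5 in T cells, with -2.15 and -2.20. Smn1, the central assembly chaperone, had 796 in ES, 361 in B and 239 in T cells. In the list of Lsm genes, 4 of 7 fell below ES cells by 2-fold or more in T cells and 3 in B cells. The shares of all genes were as above, and the list medians were -1.03 and -0.82. The list includes Lsm1 (-0.59 in T and -0.82 in B cells), so its values are not those of the U6 snRNP ring alone. Lsm2 was lowest at -1.86 and -2.12. Both lists lay on the same side of 0 as the Snrp family against ES cells under every scaling tried. The replication and mitosis list had medians of -2.36 and -2.07 in the same comparisons, and its part in them was not tested.

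SR protein kinases lay on the other side. Of 8 measured genes of the kinases and the SR importin, 3 were at least 2-fold higher and 0 lower in T than in ES cells, with a median of 0.81. In B cells 3 were higher and 1 lower, with a median of 0.95. Of all genes 22.7% were higher and 24.7% lower in T cells, and 21.1% and 24.6% in B cells. Clk4, a nuclear kinase of SR proteins, had 759 in ES, 2956.5 in B and 2314 in T cells. Srpk3 had 10 in ES, 9122 in B and 207 in T cells, so B cells were 44-fold above T cells and at least 96-fold above ES cells. All of its measured probe sets were higher in B than in ES cells, by at least 3.53 on the log2 scale. The T cell array held 6 of 7 B cell markers above detection, at a summed signal of 7473 against 122401 in B cells, and their part in the T cell value of Srpk3 was not tested. Srpk1, the widely expressed cytoplasmic kinase, was lowest in B cells, with 3193 in ES, 1421.5 in B and 3108 in T cells.

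The remaining lists held genes of both directions, and against ES cells their counts in T cells are read beside 22.7% of all genes higher and 24.7% lower. Of 18 other U1, U2, U5 and tri-snRNP proteins, 2 were at least 2-fold higher and 4 lower in T cells, with a median of -0.40, so the share lower was near that of all genes. Phf5a, of SF3b, had 6657 in ES, 2865 in B and 2129 in T cells, and Ddx23, the tri-snRNP helicase that acts with U5, had 100.4 in ES, 452 in B and 313 in T cells. Of 19 proteins associated with Prp19 or the catalytic steps, 2 were higher and 5 lower, with a median of -0.49, again near that share. Cdc5l, a core member of the Prp19 complex, differed by -1.59, and Syf2 by 1.71. Among 13 SR-related proteins 1 was higher and 1 lower, and among 15 hnRNP proteins with other symbols 2 were higher and 2 lower, the latter with a median of -0.69. Ptbp1, the polypyrimidine tract binder, had 8809 in ES, 6181.5 in B and 6129 in T cells, while its paralog Ptbp3 had 1591 in ES, 8873 in B and 6569.8 in T cells.

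**Figure D4:**
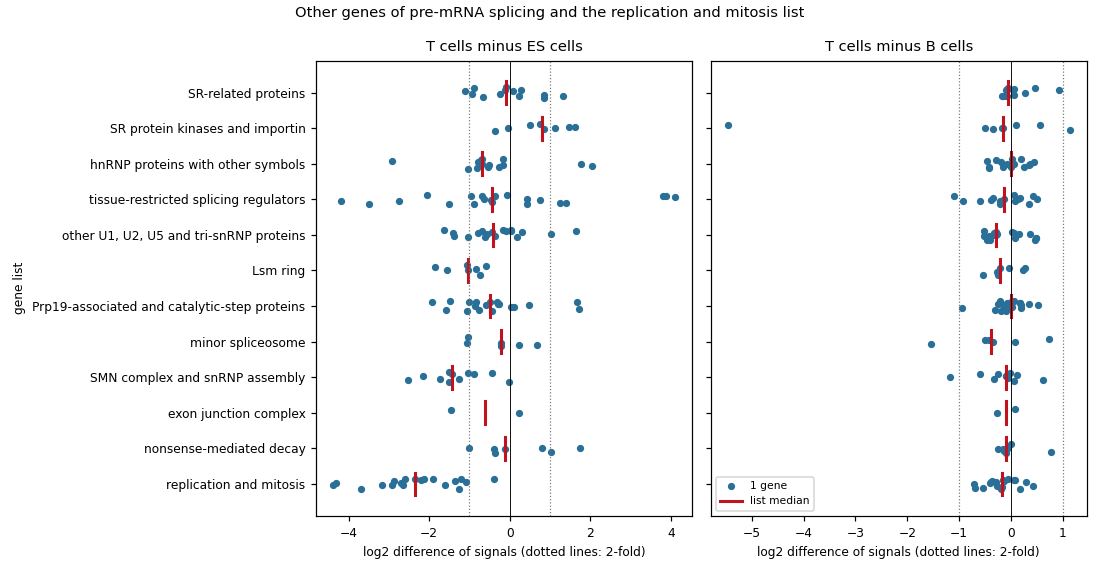
Log2 differences of the genes (points) of each related list, for T cells minus ES cells (left) and T cells minus B cells (right). Red bars are list medians and dotted lines mark 2-fold; the snRNP assembly list has a median of -1.44 against ES cells and the replication and mitosis list -2.36, while the point at -5.46 on the right is Srpk3.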

How the data were processed

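The authors deposited linear intensity values of 45037 probe sets on 3 arrays, made with Affymetrix Expression Console according to the submitters' processing notes. No version, summarization or scaling target is given in the sources used here. Trimmed column means of 497.3, 497.8 and 497.7 in ES, B and T cells show that the arrays were on a common scale, so a change in total mRNA per cell cannot be seen. RNA was labelled for a 3' array per the labels' protocols, so isoforms that share an end are not separated.

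Symbols came from GEO's platform annotation: 34945 probe sets had 1 symbol, 932 had several and 9160 had no listed symbol, and those of 1 symbol stood for 18193 genes. Values under the detection level, the 50th percentile of all values, were raised to it before log2, and a fold against an array below it is written "at least". No level was compared between genes. Calls were made at 2-fold and 4-fold without a test, with 1 array per group. Genes named in the text followed a rule by family, size of difference and fixed names. The members, lists and this rule were chosen with earlier results of these data known. The 6 promoters shown and the rule on every probe set were chosen after the values were seen. Of probe sets used for the 62 genes, 36 end in _at, 14 in _a_at, 7 in _s_at and 5 in _x_at, and the last 2 kinds can detect related sequences. The alternatives tried were scaling by quantiles, scaling to the 75th percentile, centring on all genes, adding 16 with no floor, a detection level at the 65th percentile, the median over probe sets and a filter on detection in all arrays. Python 3.11.15, numpy 2.4.6 and pandas 2.3.3 were used, and the calculations were tested on simulated data.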

Additional observations from a re-analysis of the deposited data

How the results depend on the processing

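Of the counts and the family and overall medians recomputed under the alternatives, 198 values stayed within 1.5 times the count, or within the probe set error for a median, and 18 did not. That error, the SD of a single probe set over all genes, was 0.633 for T against ES cells and 0.610 for B against ES cells. For T against B cells it was 0.350. Many medians were smaller than it, so a median could change sign and still count as within it. With quantile normalization, 4 splicing genes were higher in T than in ES cells and 2 in B cells (all genes: 19.4% and 18.3% higher). With scaling to the 75th percentile, 27 were lower in T cells and 27 in B cells (all genes: 32.7% and 31.3% lower). That scaling gave 1 higher in T than in ES cells and 1 higher in T than in B cells (all genes: 17.2% and 8.48%). Centring gave 4 higher in T cells than in ES cells and 0 lower in T than in B cells (all genes: 24.4% and 5.87%). The median over all probe sets gave 4 higher in T cells, 5 higher and 9 lower in B cells, and 0 lower in T than in B cells. These were 6.56%, 8.2%, 14.8% and 0% of the splicing genes, against 21.3%, 19.9%, 20.2% and 5.41% of all genes. The same setting gave an Sf3a median of -0.36 in B cells. Requiring every measured probe set was added after the data were seen. It gave 0 higher and 9 lower in T cells (all genes: 16.8% and 18.0%) and 0 higher and 7 lower in B cells (15.7% and 17.5%). Between T and B cells 0 were lower in T cells (5.07%).

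Of the values of single genes, 1219 stayed within the probe set error, 48 moved beyond it and 3 reversed, all 3 with the median over all probe sets: Prpf38a in T (1.10) and B cells (1.70), and Sf3b2 in T cells (-0.36), each against ES cells. That setting takes the median within each array first. The medians of the probe sets' own differences were 0.85 and 0.02 for Prpf38a in T and B cells and 0.25 for Sf3b2 in T cells, so the reversal of Sf3b2 did not hold with them and that of Prpf38a in B cells came to nearly 0. The cause was not tested. All 182 values stayed within the error under each of quantile normalization, scaling to the 75th percentile and centring. Scaling to that percentile and centring shift genes above detection by a constant smaller than the error, so those values could not leave it. The filter on detection leaves values unchanged. The median over all probe sets moved 45 values and reversed 3. The count of 1219 thus says little about how firm the values are. Across the scalings, 13 of 61 genes changed sign for T against ES cells, 9 of 61 for B against ES cells and 7 of 60 for T against B cells. No paired analysis was possible because each population had 1 array. Dim probe sets near the detection level limit the fold that can be read for Snrpn, Srsf12 and, in B cells, Hnrnpll.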

Other observations

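A list of splicing regulators, many but not all known for tissue-restricted expression, differed in both directions. Celf1, Khdrbs1, Qk, Tia1 and Tial1 on this list were above detection in all 3 arrays. Tia1 in both lymphocytes and Tial1 in B cells are among the genes counted as higher below. Of 21 measured in T cells against ES cells, 5 were at least 2-fold higher and 5 lower, near the 22.7% and 24.7% of all genes. Of these, 3 and 4 passed 4-fold, where 10.8% and 10.2% of all genes did. Of 22 measured in B cells 7 were higher and 4 lower, against 21.1% and 24.6%. Esrp1, an epithelial splicing regulator, had signals of 1725 in ES, 4 in B and 7.9 in T cells, with ES cells at least 18.2-fold above either lymphocyte. Khdrbs3, a STAR family RNA-binding protein, had 1066 in ES, 16.1 in B and 14.7 in T cells. In the other direction, Mbnl1, a muscleblind protein that opposes embryonic splicing patterns, had 1672 in ES, 16724 in B and 23488 in T cells, although its measured probe sets ran from 0.11 to 3.81 on the log2 scale in T cells. Celf2, which regulates splicing in T cells, had 451 in ES, 7338 in B and 7758 in T cells, and all of its measured probe sets were higher in T cells by at least 1.83.

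Among 7 genes of nonsense-mediated decay, the pathway that removes transcripts with early stop codons, 2 were at least 2-fold higher and 1 lower in T than in ES cells, against 22.7% and 24.7% of all genes. Smg1, its kinase, had 1315 in ES, 4792 in B and 4384 in T cells, with measured probe sets from -0.16 to 1.74 in T cells. Of the exon junction complex 2 genes were measured, and Rbm8a had 10821 in ES, 3711 in B and 3937 in T cells. Of 6 minor spliceosome genes, 1 was at least 2-fold lower in T than in B cells, against 6.32% of all genes. It was Snrnp25, with 1852 in ES, 2573 in B and 886.5 in T cells. In T against ES cells 2 of the 6 were at least 2-fold lower and 0 higher, against 24.7% and 22.7% of all genes.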
